A study of Mus musculus with 4 samples.

Results

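The Fto and Irx window is the stretch of mouse chromosome 8 from 91 to 93 Mb (mm10), 2 Mb long, that holds 5 genes of the obesity locus: Fto, Rpgrip1l, Irx3, Irx5 and Irx6. Every peak that overlapped this stretch was taken, which gave 305 of the 342011 deposited peaks. Peaks of the 4 libraries that overlapped or abutted were merged, and the window held 132 of the 147146 merged regions of the genome. The data were ATAC-seq, which marks open chromatin by the insertion of a transposase, on the visceral fat of mice of the outbred CD-1 stock. The study states that mice 8 weeks old were used in all experiments, and it gives no separate age at sampling. There were 2 control libraries, from descendants of dams given sesame oil, and 2 BPA libraries, from descendants of dams injected with 50 mg/kg of bisphenol A (BPA) in the peritoneum from embryonic day 7.5 to 13.5. The mice themselves were not injected in either group. The labels call the BPA animals F3 and the study's text places them in the F4 generation, so the generation is not settled here, and no sex or batch was given. The tissue was bulk, so that more cells of a type and more open chromatin per cell cannot be told apart.

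Fto encodes an oxygenase that removes methyl groups from adenosine in RNA. Its long introns hold noncoding variants associated with human obesity, and DNA within them contacts the promoters of Irx3 and Irx5, which encode homeodomain transcription factors of the Iroquois family that bear on the choice between white and thermogenic adipocyte fates. Irx6 is the third gene of that cluster. Rpgrip1l, which is transcribed away from Fto across a shared upstream stretch, encodes a protein of the transition zone at the base of the primary cilium.

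The strength of a peak is given as its rank in its own library by the deposited q-value, in percent of the list, so that 0 is the strongest end and 100 the weakest. The lists held 82665 and 88911 peaks in control 1 and control 2, and 72375 and 98060 peaks in BPA 1 and BPA 2. A promoter peak overlapped the stretch 500 bp either side of a curated RefSeq start site. Promoter peaks were found at all 7 adipocyte markers searched (such as Adipoq and Plin1) in every library and at none of the 3 hepatocyte markers. Of 3 endothelial markers, 1 had a promoter peak in each control library and 3 in each BPA library, with Pecam1 and Cdh5 open in the BPA libraries only. Of 4 progenitor markers, 3 had one in each control library and all 4 in each BPA library, and of 3 mesothelial markers between 1 and 2 did. Of 4 germ cell genes, 1 and 2 were open in the control libraries and 2 and 3 in the BPA libraries.

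The sequences shown first are the promoters on which the comparison of the members turns, from GRCm38 (mm10), plus strand, cut to the part of each peak that lies outside the exons of protein-coding transcripts. Capitals mark the GC box GGGCGG on either strand. The stretch between Rpgrip1l and Fto held none, although it had 10 CpG dinucleotides in 75 bases. The Irx3 stretch held 4 matches, of which 3 overlapped. That stretch does not hold the summit of the Irx3 peak in any library, and it reaches past the peak's end in control 1, control 2 and BPA 1. No GC box lay within 100 bp of the best-ranked Irx3 summit (position 91801720, in BPA 2). The control 2 summit (position 91802048) lay nearer the printed stretch, and the 3 matches that overlapped fall within 100 bp of it.
Fto and Rpgrip1l, chr8:91313292-91313366: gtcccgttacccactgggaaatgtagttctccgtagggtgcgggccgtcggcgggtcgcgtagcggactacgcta
Irx3, chr8:91802068-91802267: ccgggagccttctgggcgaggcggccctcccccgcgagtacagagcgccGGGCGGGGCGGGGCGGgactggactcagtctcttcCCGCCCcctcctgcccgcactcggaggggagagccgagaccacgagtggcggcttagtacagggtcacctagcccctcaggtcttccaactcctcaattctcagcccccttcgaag
Crnde, the start next to Irx5, chr8:92356022-92356221: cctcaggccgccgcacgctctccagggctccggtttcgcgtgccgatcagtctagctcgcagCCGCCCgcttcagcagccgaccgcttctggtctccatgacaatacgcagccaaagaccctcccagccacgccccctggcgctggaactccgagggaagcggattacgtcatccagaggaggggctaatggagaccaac
Irx6, chr8:92673563-92673762: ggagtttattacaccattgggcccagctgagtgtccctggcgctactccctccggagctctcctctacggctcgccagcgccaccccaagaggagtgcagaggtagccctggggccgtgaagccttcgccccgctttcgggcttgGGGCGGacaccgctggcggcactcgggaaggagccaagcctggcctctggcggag

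Of the 5 member promoters, 3 had a peak in all 4 libraries (Fto, Rpgrip1l and Irx3), 1 had a peak in 3 libraries (Irx6) and 1 had none (Irx5). Among all 21000 coding genes with a curated start site, 57.9% showed promoter peaks in all 4 libraries, and 30.4% lacked one in every library.

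Fto and Rpgrip1l start 303 bp apart and were covered by a single peak in each library (chr8:91313024-91314055 when merged). It was among the strongest peaks of each list, with ranks of 0.173% and 0.0315% in the control libraries and of 0.385% and 2.19% in the BPA libraries. Of the coding promoters with a peak in all 4 libraries, 1.21% and 0.148% ranked better in the control libraries. In BPA 1 it was 2.52% of them and in BPA 2 19.7%. Both control ranks were better than both BPA ranks, with a difference of group means of -1.19 points (control 0.102 ± 0.1, BPA 1.29 ± 1.28, SD, n = 2 each), less than the SD of the BPA pair. The fold over local background, which the peak caller computes at the summit, was 9.57 and 12.7 in the control libraries and 15.1 and 10.9 in the BPA libraries, so the groups overlapped by that measure. The summit lay between 91 and 163 bp before the Fto start and between 140 and 212 bp before the Rpgrip1l start, and the pile-up of fragments there was 128, 170, 203 and 416 in the same order of libraries. Because the same peak serves both start sites, its signal cannot be divided between the genes.

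The Irx3 promoter peak (chr8:91800777-91802382 when merged) was weaker than the shared promoter and ranked better in both BPA libraries. Its rank was 25.3% in control 1 and 24.0% in control 2, against 10.9% in BPA 1 and 9.14% in BPA 2. The groups did not overlap, and the difference of 14.7 points (control 24.7 ± 0.908, BPA 10.0 ± 1.24, SD, n = 2 each) was larger than the spread of either pair of replicates. Its fold over local background was 4.53 and 4.78 in the control libraries and 8.73 and 7.39 in the BPA libraries, again without overlap. The summit pile-up was 36 and 44 fragments in the control libraries and 76 and 222 in the BPA libraries, and the peak was called 675 and 767 bp wide in the control libraries and 1381 and 1606 bp in the BPA libraries. Pile-ups are not scaled between libraries, and their list medians were 22, 23, 19 and 38. The local background at the Irx3 summit was 2.51, 3.12, 6.77 and 7.68 times the lowest of the same library. The median peak width of the lists was 567, 456, 540 and 780 bp.

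Promoters in general ranked better in the BPA libraries more often than the reverse, which stands beside the Irx3 values. Of the 12166 coding genes with a promoter peak in all 4 libraries, 40.7% had both BPA ranks better than both control ranks and 18.7% the reverse, and the median difference over them was 1.84 points. A difference at least as large as that of Irx3 was seen at 14.5% of them. Against these promoters alone, 82.3% and 76.1% ranked better than Irx3 in the control libraries and 61.1% and 70.6% in the BPA libraries, so Irx3 was in the weaker part of open promoters in every library. With 2 libraries per group the smallest p of a two-sided exact permutation test is 0.333, so no difference could pass 0.05 by that test, and none was run.

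Irx5 had no peak within 500 bp of its start (position 92357796) in any library. The nearest peak upstream belonged to Crnde, a long noncoding RNA gene that is transcribed in the opposite direction from a start 1676 bp away, and it ended 1244 bp short of the Irx5 start. The nearest region downstream began 6508 bp beyond the Irx5 start. The Crnde promoter itself (chr8:92355621-92356552) was one of the strongest of the window, at 1.94% and 1.69% in the control libraries and 0.285% and 0.208% in the BPA libraries. Both BPA ranks were better than both control ranks, by 1.57 points (control 1.82 ± 0.178, BPA 0.246 ± 0.0542, SD, n = 2 each), and the fold over background was 7.82 and 9.63 against 16.9 and 13.6. An unlisted promoter says that no peak passed the caller's threshold there, not that the DNA was closed.

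The Irx6 promoter (chr8:92673291-92674433) had a peak at 22.8% in control 2, 36.8% in BPA 1 and 25.7% in BPA 2, and none in control 1. The control 2 rank was better than both BPA ranks, while its fold was lower than both, at 6.38 against 6.77 and 7.98. Without a peak in control 1 there is no control pair, so overlap between the groups cannot be judged. The peak counts as a promoter peak by its edge only, since its summit lay between 549 and 626 bp before the start of Irx6 in the 3 libraries. Control 1 lacked a peak at 11 of the 17 regions of the window found in exactly 3 libraries (64.7%), while genome-wide control 1 was the missing library at 33.3% of such regions.

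**Figure D1:**
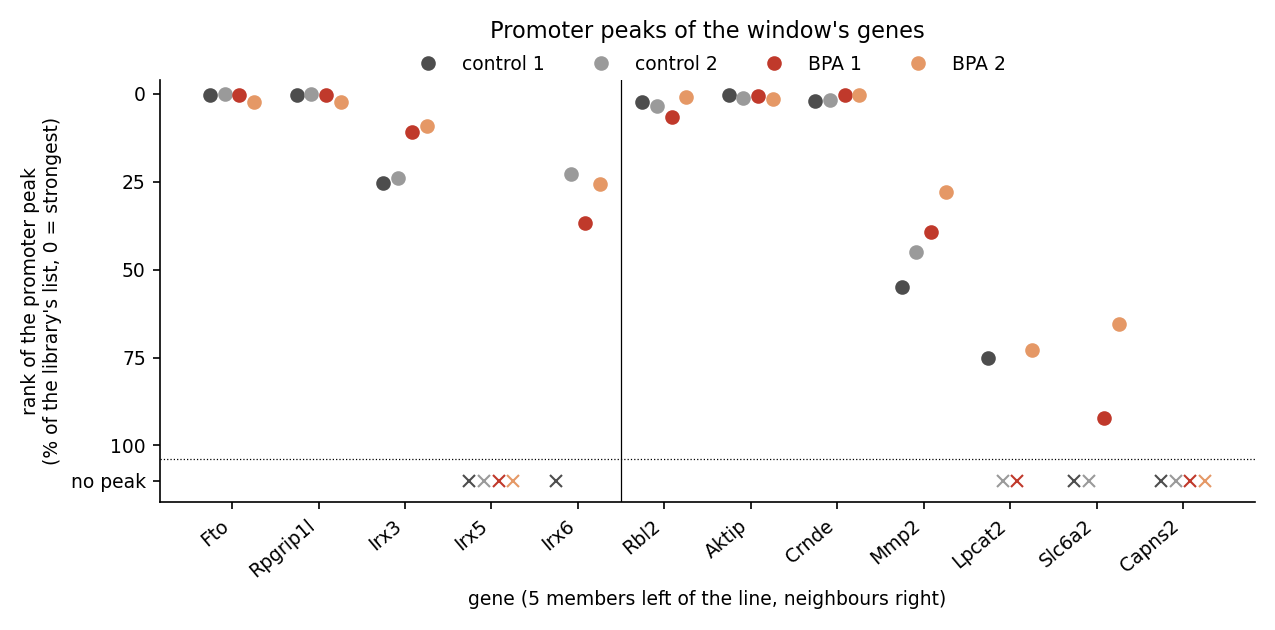
Rank of the promoter peak of each gene of the window in each library (y axis, percent of the library's list, 0 strongest), with crosses where no peak overlapped 500 bp either side of the start site. Fto and Rpgrip1l share one peak near 0, the BPA points of Irx3 lie above its control points (10.9% and 9.14% against 25.3% and 24.0%), and Irx5 has crosses only.

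The neighbours put these values in order. Among the other 7 curated genes with a start in the window, Rbl2 (a pocket protein of the retinoblastoma family), Aktip (an Akt-interacting protein), Crnde and Mmp2 (gelatinase A, an extracellular matrix protease) had promoter peaks in all 4 libraries, the same pattern as Fto, Rpgrip1l and Irx3. Aktip was close to Fto in strength, at 0.243%, 1.02%, 0.688% and 1.31%, and Rbl2 ranked 2.40%, 3.53%, 6.67% and 0.943%. Those ranks overlapped between the groups. The Mmp2 promoter ranked 54.9% and 44.9% in the control libraries and 39.4% and 27.9% in the BPA libraries, without overlap, a difference of 16.2 points (control 49.9 ± 7.11, BPA 33.7 ± 8.14, SD, n = 2 each). Capns2, a calpain small subunit gene, had no promoter peak, the pattern of Irx5. Lpcat2, a lysophospholipid acyltransferase gene, had one in control 1 and BPA 2 (75.1% and 72.8%). Slc6a2, which encodes the noradrenaline transporter, had one in BPA 1 and BPA 2 only, low in the lists at 92.2% and 65.5%.

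Over the whole window the BPA libraries held more of their peaks. The control libraries had 52 and 72 peaks and the BPA libraries 72 and 109. As a share of each list this was 0.0629% and 0.0810% in the control libraries and 0.0995% and 0.111% in the BPA libraries, so both BPA shares were higher. The group means were 0.0719 ± 0.0128% and 0.105 ± 0.00826% (SD, n = 2 each), a ratio of 1.46. With the lists cut to the 72375 best peaks each, the window held 50, 60, 72 and 77 peaks. Among the best 20000 peaks of each list it held 7, 14, 10 and 9, and the ratio turned to 0.905, so the excess lay outside the strongest peaks. BPA 2 had the widest peaks (median 718 bp in the window, against 409 to 598 bp in the others).

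**Figure D2:**
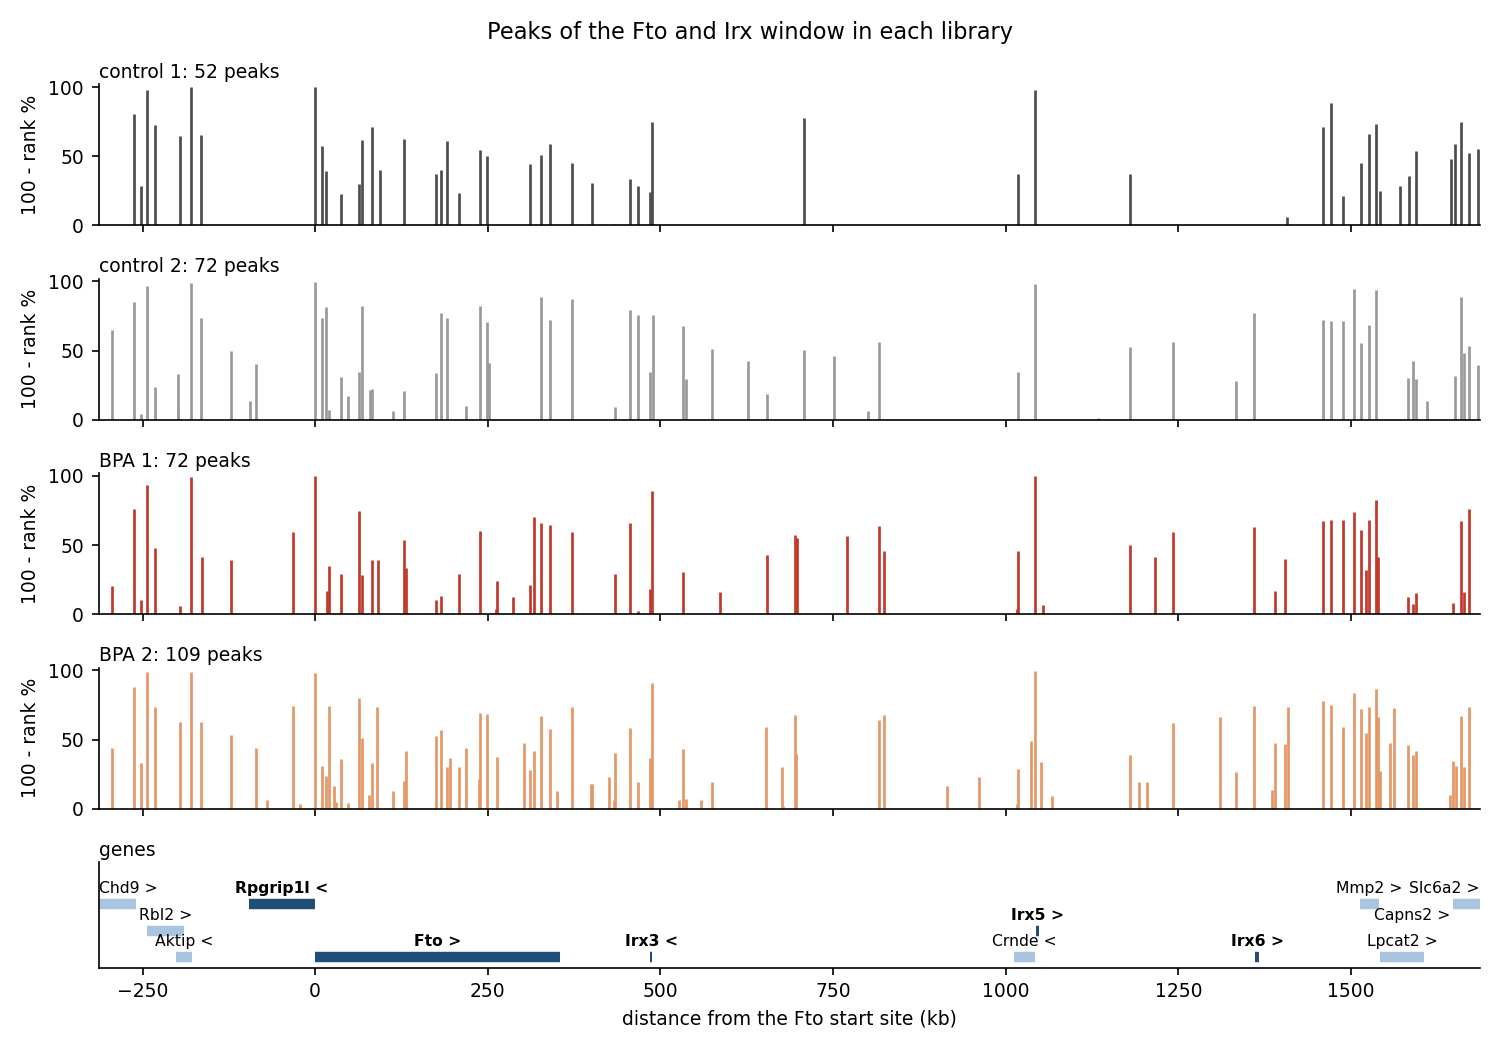
Every peak of the window in each library (x axis, distance of the summit from the Fto start site in kb, and line height, 100 minus the rank in percent, so that tall lines are strong peaks), with genes below (members dark) and the direction of transcription as arrows. Peaks were dense across Fto and at the right end near Mmp2, and thin between Irx3 and Crnde, where control 1 had 1 peak.

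Of the 132 regions, 37 had a peak in all 4 libraries (28.0%, against 26.3% of all regions of the genome), 17 in 3 libraries, 10 in 1 library of each group and 51 in a single library. Both BPA libraries and neither control library held 14 regions (10.6%, against 9.4% genome-wide), and both control libraries and neither BPA library held 3 (2.27%, against 5.33% genome-wide). The regions of a single library were 38.6% of the 132, against 39.5% genome-wide. Of these 51, 31 were in BPA 2 (60.8%, against 33.9% genome-wide) and 2 in control 1 (3.92%, against 30.1%). The best ranked of these lay in intron 7 of Lpcat2 at 27.4% in BPA 2, and their median rank was 83.9%. By position 9 regions were promoters, 63 lay in introns, 6 in exons and 54 between genes, and 6 of the 9 promoters were open in all 4 libraries.

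Open chromatin was unevenly spread along the locus. Fto with the shared promoter had 38 regions, or 10.7 per 100 kb, against 6.6 over the window and 5.40 over the genome. Of the 38, 14 were in a single library, and the number with a peak ran from 18 in control 1 to 33 in BPA 2. Fto was not the densest stretch, since that of Mmp2, Lpcat2 and Slc6a2 had 12.7 per 100 kb. The short stretch of Crnde and Irx5 (35.4 kb, 4 regions) had 11.3. The 524 kb from Irx3 to Crnde had 21 regions (4.01 per 100 kb) and the 312 kb from Irx5 to Irx6 had 11 (3.53 per 100 kb). No region between Irx3 and Crnde was open in all 4 libraries, and control 1 had a peak at 1 of those 21, control 2 at 10, BPA 1 at 8 and BPA 2 at 14. In the 130 kb between the end of Fto and Irx3, 5 of 9 regions were open in all 4. The body of Rpgrip1l, 96.2 kb long, had 5 regions, of which none was open in all 4 and none was found in control 1.

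**Figure D3:**
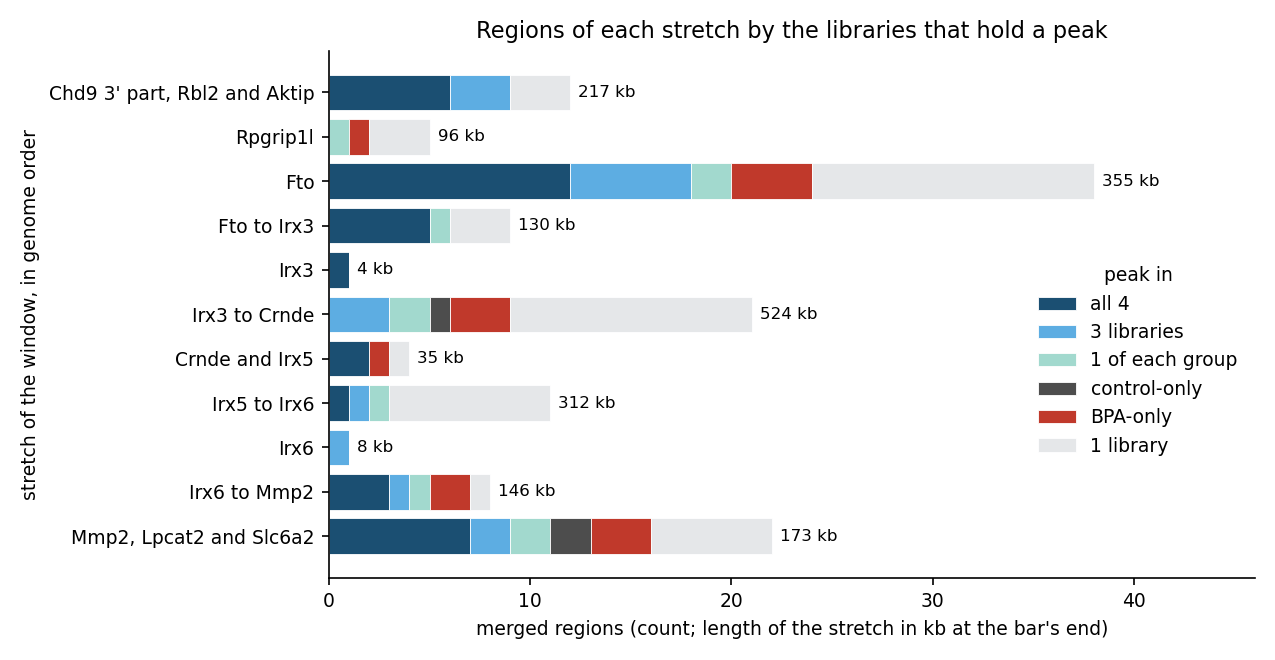
Merged regions in each stretch of the window (bars, count, with the length of the stretch in kb at the end), coloured by the libraries that hold a peak. Fto has 12 regions open in all 4 libraries with its promoter counted, while the longer stretch from Irx3 to Crnde has none.

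Within Fto, 37 regions had their best summit in an intron, 11 of them open in all 4 libraries, 6 in 3, 2 in 1 library of each group, 4 in the BPA libraries only and none in the control libraries only. Over all regions of the genome, 26.3% were open in all 4, 9.4% in the BPA libraries only and 5.33% in the control libraries only. Intron 1, 88.2 kb long, had 13 regions with 5 open in all 4, and intron 8, 143 kb long, had 13 with 3 open in all 4. Introns 5 and 6 had none, and they are 5.91 and 10.7 kb long. All 37 ranked below the promoter in every library that held them. The 11 regions open in all 4 ranked from 28.8% to 77.1% in control 1, from 11.4% to 78.9% in control 2, from 25.4% to 90.1% in BPA 1 and from 19.9% to 79.9% in BPA 2. The best ranked on average lay in intron 8 (chr8:91640133-91641081), 327 kb from the start, at 49.3%, 11.4%, 34.1% and 33.1%. Its groups overlapped. The sequence around its summit carries the AP-1 motif TGANTCA, shown in capitals.
Fto intron 8, chr8:91640604-91640803: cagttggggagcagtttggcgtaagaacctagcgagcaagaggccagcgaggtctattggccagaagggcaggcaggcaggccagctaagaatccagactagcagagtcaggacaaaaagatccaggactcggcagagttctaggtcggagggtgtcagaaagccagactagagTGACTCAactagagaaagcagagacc

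Intron 1 held the regions of Fto with the largest differences in rank, and they went in opposite directions. A region 63.5 kb from the start (chr8:91376292-91377681) ranked 70.1% and 65.2% in the control libraries and 25.4% and 19.9% in the BPA libraries, a difference of 45.0 points without overlap, with folds of 2.78 and 3.09 against 6.51 and 5.60. A region 15.8 kb from the start (chr8:91329035-91330387) ranked 60.5% and 18.2% against 83.5% and 76.7%, a difference of -40.8 points, with folds of 3.32, 5.87, 3.71 and 2.71 that overlapped. Its BPA 1 peak (chr8:91329902-91330289) did not overlap its control 2 peak (chr8:91329172-91329893). Merging joined them through the peaks of control 1 and BPA 2, so the ranks of this region compare different sites in part. A region at 68.4 kb (chr8:91380890-91382254) ranked 38.4% and 17.6% against 71.9% and 49.1%, a difference of -32.5 points. Over the genome, 27.7% of the regions open in all 4 libraries had both BPA ranks better and 27.5% both control ranks. The other 8 Fto intron regions open in all 4 overlapped between the groups, and the median difference over the 11 was -4.41 points. The first pair is shown for these opposite orders, chosen after their values were seen. The order in each label is that of the merged region. The second stretch surrounds the control 2 summit, and the BPA 1 peak of that region does not reach it. Capitals mark the palindrome ACANNTGT, which Iroquois proteins can bind, and in the first sequence also the GC box.
Fto intron 1, better ranked in BPA, chr8:91376967-91377166: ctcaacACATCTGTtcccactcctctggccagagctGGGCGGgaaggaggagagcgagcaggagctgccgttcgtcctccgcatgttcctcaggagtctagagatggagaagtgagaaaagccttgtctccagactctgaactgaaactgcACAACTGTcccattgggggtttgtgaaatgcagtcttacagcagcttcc
Fto intron 1, better ranked in control, chr8:91329211-91329410: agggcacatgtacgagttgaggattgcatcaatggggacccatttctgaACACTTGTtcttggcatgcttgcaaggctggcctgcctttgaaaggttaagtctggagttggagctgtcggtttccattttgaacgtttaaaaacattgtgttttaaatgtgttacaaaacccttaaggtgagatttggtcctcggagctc

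**Figure D4:**
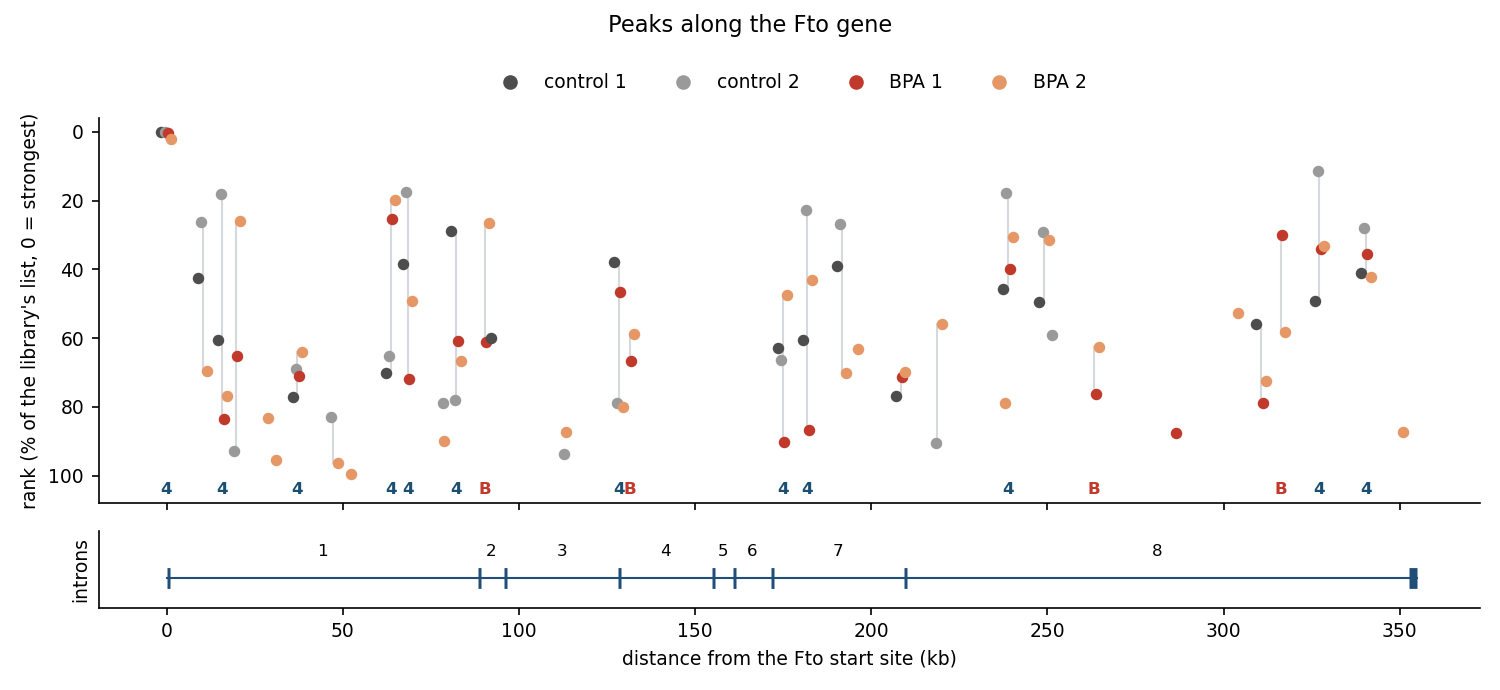
Rank of every peak along Fto in each library (y axis, percent of the list, 0 strongest; x axis, distance from the start site in kb), with introns numbered below, 4 marking regions open in all 4 libraries and B those of the BPA libraries only. The promoter stands at 0.0315% to 2.19% and the intron regions between 11.4% and the end of the lists.

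The 4 Fto regions found in the BPA libraries only lay in introns 2, 4, 8 and 8. The region in intron 2 (chr8:91403230-91404222) ranked 61.1% in BPA 1 and 26.4% in BPA 2. That in intron 4 (chr8:91444822-91445680) ranked 66.5% and 58.7%. Both ranked outside the strongest 25% of either list. In intron 8, one (chr8:91576014-91577054) ranked 76.3% and 62.5% and the other (chr8:91629570-91630745) ranked 29.9% and 58.3%. In Rpgrip1l, a region in intron 9 (chr8:91280720-91281430) was open in the BPA libraries only, at 40.4% and 25.9% with folds of 7.57 and 8.78. It was the best ranked of the 14 by the worse of its ranks, and it lay within 500 bp of a start site that GENCODE gives for a shorter Rpgrip1l transcript (position 91281506) and RefSeq's curated set does not. Both it and the next best ranked are printed, and neither carries any of the motifs searched.
Rpgrip1l intron 9, BPA only, chr8:91280921-91281120: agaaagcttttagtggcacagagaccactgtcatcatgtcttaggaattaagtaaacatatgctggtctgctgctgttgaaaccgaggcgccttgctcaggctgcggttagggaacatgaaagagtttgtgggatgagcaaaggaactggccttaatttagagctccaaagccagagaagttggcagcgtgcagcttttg
Between Irx3 and Crnde, BPA only, chr8:92008930-92009129: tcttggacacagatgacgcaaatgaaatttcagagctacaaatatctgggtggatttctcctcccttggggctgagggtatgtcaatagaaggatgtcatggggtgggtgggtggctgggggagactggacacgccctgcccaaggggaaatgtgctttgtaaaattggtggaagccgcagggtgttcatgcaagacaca

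Between Irx3 and Crnde 3 regions were found in the BPA libraries only. They ranked 42.6% and 32.1% in BPA 1 and BPA 2 (chr8:92008752-92009407), 45.0% and 60.1% (chr8:92010413-92010824), and 54.0% and 32.6% (chr8:92137035-92137844). The summits of the first pair lay 1604 bp apart. The weakest of the 14 was in intron 5 of Crnde (chr8:92329475-92330151), at 96.3% and 96.5%. Between Irx6 and Mmp2 one region (chr8:92703424-92703975) ranked 83.5% and 52.9% and another (chr8:92717461-92718174) ranked 59.8% and 53.5%. In Mmp2 one lay in intron 5 (chr8:92834794-92835419), at 68.0% and 45.3%, and one in exon 13 (chr8:92853264-92853961), at 58.9% and 33.9%. The last was the Slc6a2 promoter given above. Over the 14 the median rank was 60.4% in BPA 1 and 53.2% in BPA 2, against 65.3% and 50.2% over all 13830 such regions of the genome. Their summit pile-ups were 7 to 26 fragments in BPA 1 and 13 to 93 in BPA 2. The endothelial markers Pecam1 and Cdh5 were open in the same libraries, and the part of other cell types in these 14 regions was not tested.

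The 3 regions found in the control libraries only lay outside the members. One was between Irx3 and Crnde (chr8:92021442-92022012), at 22.1% and 49.9% in control 1 and control 2, with folds of 6.75 and 4.80, and it was the single peak of control 1 in that stretch. Its summit lay 11.0 kb from the nearest summit of a region found in the BPA libraries only. The others were in intron 1 of Slc6a2 (chr8:92964540-92964865, at 41.3% and 68.3%) and across the start of its exon 13 (chr8:92996812-92997315, at 45.0% and 60.6%). The pair with the better ranks is printed. Capitals in the first mark a C/EBP motif (TTGCNNAA, here on the minus strand) and an AP-1 motif, and the other, cut at the exon, has none.
Between Irx3 and Crnde, control only, chr8:92021491-92021690: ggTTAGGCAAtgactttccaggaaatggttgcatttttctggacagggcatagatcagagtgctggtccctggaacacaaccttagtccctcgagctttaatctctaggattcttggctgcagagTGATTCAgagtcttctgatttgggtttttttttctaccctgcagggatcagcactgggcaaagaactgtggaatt
Slc6a2 intron 12, control only, chr8:92996814-92997013: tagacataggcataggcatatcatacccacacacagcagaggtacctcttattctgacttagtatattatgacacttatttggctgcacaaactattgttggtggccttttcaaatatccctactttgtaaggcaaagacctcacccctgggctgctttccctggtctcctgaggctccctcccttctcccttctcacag

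At the 37 regions open in all 4 libraries, both BPA ranks were better at 6 (16.2%, against 27.7% of the 38725 such regions of the genome) and both control ranks at 6 (16.2%, against 27.5%), and the other 25 overlapped. The median difference of control minus BPA was -0.657 points, against a median SD between replicates of 10.4 points, and genome-wide it was -0.0869 points. The 6 with better BPA ranks were the promoters of Irx3, Crnde and Mmp2, the intron 1 region of Fto at 63.5 kb, a region between Fto and Irx3 and one in intron 4 of Slc6a2. Of these, the region between Fto and Irx3 (chr8:91747287-91747870) ranked 98.8% and 90.5% in the control libraries and 70.6% and 59.8% in the BPA libraries. The Slc6a2 region (chr8:92984192-92985090) ranked 47.7% and 47.0% against 23.8% and 26.1%. The 6 with better control ranks were the shared Fto and Rpgrip1l promoter, the pair in intron 1 of Fto, a region between Aktip and Rpgrip1l, another between Fto and Irx3 and one in intron 3 of Slc6a2. The region between Aktip and Rpgrip1l (chr8:91147729-91149496) ranked 34.4% and 26.7% in the control libraries against 58.4% and 37.1% in the BPA libraries. That between Fto and Irx3 (chr8:91780505-91781397) ranked 71.4% and 24.1% against 97.9% and 80.5%, and that in Slc6a2 (chr8:92972774-92973419) ranked 25.5% and 11.5% against 32.9% and 33.3%. The summits of the regions between Fto and Irx3 lay 33.3 kb apart with opposite orders.

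**Figure D5:**
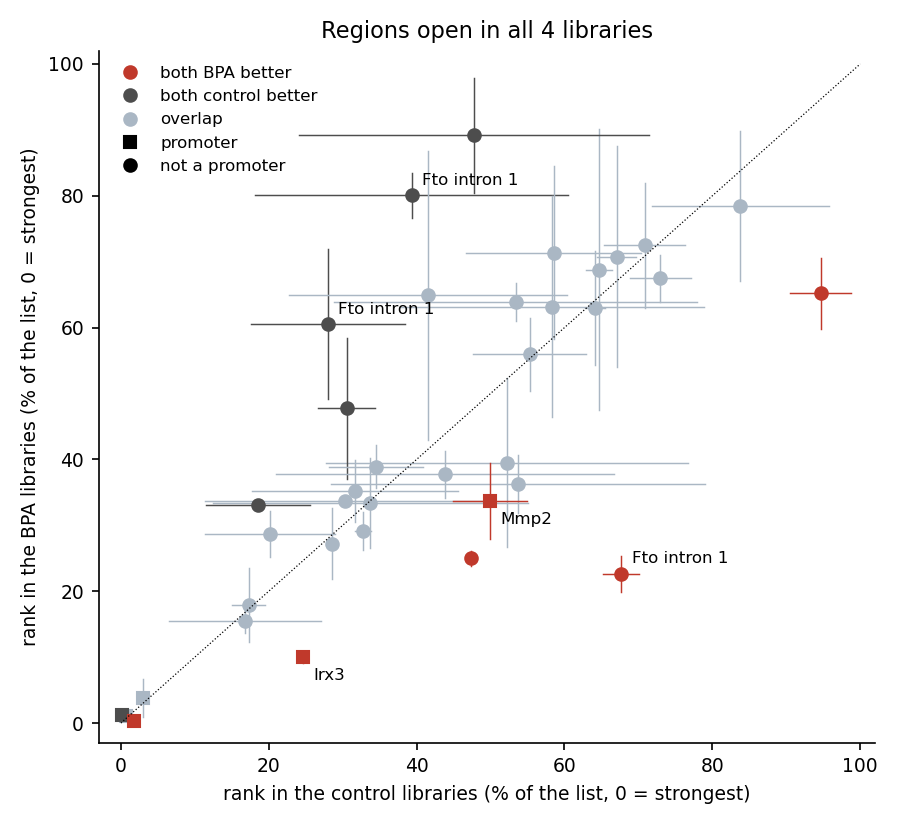
Mean rank in the control libraries (x axis) and in the BPA libraries (y axis) of the 37 regions open in all 4, in percent of the list with 0 strongest, with lines to the values of each pair of replicates. Points below the dotted diagonal ranked better in BPA, and the 6 red and 6 dark points are those whose replicate pairs did not overlap between the groups.

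Of the other regions open in all 4 libraries, 3 lay between Fto and Irx3 with ranks that overlapped between the groups. The first (chr8:91684905-91685758) ranked 55.0%, 12.5%, 40.3% and 26.5%, worst in control 1. The next (chr8:91768235-91769303) ranked 66.7%, 20.9%, 34.1% and 41.3%, again worst in control 1. The one just past the downstream end of Irx3 (chr8:91797689-91798151) ranked 76.3%, 65.4%, 82.0% and 63.0%. Between Irx6 and Mmp2, 3 regions were open in all 4, and the best of them by mean rank (chr8:92783558-92784806) was at 11.4%, 28.9%, 32.1% and 25.2%. In Mmp2, introns 8 and 12 each held one, and that in intron 12 had the best mean rank of the intron regions open in all 4, at 27.0%, 6.47%, 17.2% and 13.7% (chr8:92849159-92850727). The remaining ones were in the last exons of Chd9, in an intron of Rbl2, beside Rbl2, and 2 in intron 11 of Lpcat2.

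In the stretches on either side of Irx5 only 2 regions away from promoters were open in all 4 libraries, and they are printed because they are the ones found in every library there. That in intron 5 of Crnde (chr8:92331731-92332384) ranked 62.8%, 65.5%, 54.3% and 71.6%. That between Irx5 and Irx6 (chr8:92493311-92494063) ranked 62.9%, 47.6%, 50.3% and 61.5%. Both overlapped between the groups and neither carries a motif searched.
Crnde intron 5, chr8:92331928-92332127: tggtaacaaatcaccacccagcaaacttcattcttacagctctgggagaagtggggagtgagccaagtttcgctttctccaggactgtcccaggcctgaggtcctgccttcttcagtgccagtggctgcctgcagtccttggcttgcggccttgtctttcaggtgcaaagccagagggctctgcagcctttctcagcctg
Between Irx5 and Irx6, chr8:92493493-92493692: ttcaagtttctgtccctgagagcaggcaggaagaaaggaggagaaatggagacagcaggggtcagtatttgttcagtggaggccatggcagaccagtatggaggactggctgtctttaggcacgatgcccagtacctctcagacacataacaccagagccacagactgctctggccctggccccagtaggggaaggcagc

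The median GC content was 49.4% for regions open in all 4 libraries and 47.7% for those of 1 library. Those open in all 4 were 1070 bp wide at the median once merged and those of 1 library 422 bp. Merging peaks of several libraries widens a region by construction. The 6 promoters open in all 4 had a median GC content of 59.4% and the 31 other regions open in all 4 had 48.8%. Motifs were searched on both strands within 100 bp of each summit. The C/EBP motif was found in 12.9% of the 132 regions (13.0% of all regions of the genome), AP-1 in 9.85% (10.2%), the GC box in 9.09% (9.64%), ACANNTGT in 4.55% (6.66%) and AATATT, the core bound by Arid5b, in 4.55% (6.48%). The CTCF core, 2.66% genome-wide, was in none of the 132, nor were the EBF palindrome (1.02%) or the oestrogen response element (GGTCA, 3 bases of any kind, then TGACC, 0.0306%). The direct repeat of PPAR and RXR was found once, in intron 3 of Slc6a2 (0.758%, against 0.400%). A match describes the letters only.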

How the data were processed

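ATAC-seq libraries of visceral adipose tissue were deposited as 1 peak list each. Per the study's methods and labels, the authors trimmed reads with Trim Galore, aligned them to mm10 with Bowtie2 2.3.5.1, kept uniquely mapped reads, removed PCR duplicates with SAMtools and called peaks in each library alone with MACS2 2.2.7.1. The deposited values are a fold over local background (a ratio), a −log10 p-value, a −log10 q-value and a score, which is that q-value column multiplied and cut to a whole number. CD-1 mice carry variants against mm10, which can affect mapping. Total reads were not given in the files, so the depth is unknown.

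Peaks were ranked by the deposited −log10 q-value within each list, which had a lowest value between 1.30 and 1.31. Overlapping or abutting peaks of the 4 lists were merged (Python 3, numpy, pandas). The summit pile-up was computed from the fold and the p-value by the peak caller's formulas, and 100% of peaks were matched within a relative error of 0.0001. Merging, presence by library and pile-ups were tested on simulated data, while placing at promoters, exons and introns was not. Promoters were 500 bp either side of 31601 start sites of curated RefSeq transcripts (GRCm38.p6, the same build as mm10), introns were numbered on the transcript with the most exons of its gene, and sequences were read from that genome. The named regions were those in introns of Fto or Rpgrip1l, those found in 1 group only and those open in all 4 libraries, and single-library regions were counted. The members and lists were chosen with earlier results of these data known. The replicates were separate samples by their labels, and nothing says which animals they came from. The alternatives tried were a stricter q-value column (5 or more), lists of equal length, the best 20000 peaks, stricter overlap of replicates, other promoter widths, ranking by fold or on chromosome 8, and leaving out each library. GENCODE vM21 start sites were added after the data were seen.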

Additional observations from a re-analysis of the deposited data

How the results depend on the processing

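With peaks of 5 or more in −log10 q-value, 19 regions were open in all 4 libraries in place of 37, and 4 in place of 11 within Fto introns. With the best 20000 peaks of each list, the mean number of peaks per library was 10.0 in place of 76.3, the window held 19 regions, 5 of them open in all 4, 0 found in the control libraries only and 2 in the BPA libraries only, none of the Fto intron regions was open in all 4 (0), and the BPA to control ratio of list shares turned from 1.46 to 0.905. With replicates that shared 50% of both lengths, 20 regions were open in all 4, 4 of them in Fto introns, and with 80% these counts were 5 and 0, while 0 were found in the BPA libraries only. Leaving out each library in turn gave 3 to 15 control-only regions (15 without control 1, 5 without control 2, 6 without BPA 2), 17 to 45 BPA-only regions (25 without control 2, 45 without BPA 1), 7 to 16 regions with better BPA ranks and 12 to 21 with better control ranks, counts that rest on fewer libraries by construction. The median rank difference ranged from -3.70 to 1.82 points, so its sign rests on single libraries (0.669 without control 2, 1.82 without BPA 1).

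The 3 member promoters open in all 4 libraries stayed at 3 with 1000 bp promoters, summits only, and GENCODE start sites, and Irx5 had no peak under any of these. With the best 20000 peaks Fto and Rpgrip1l kept peaks in 4 libraries, Irx3 in 2 and Irx6 in 0, and with summits only Irx6 had 0. No test was run on 2 libraries per group, and read depth was not given in the files. No paired analysis was possible because the labels pair no control library with a BPA library. The cause of these changes was not tested beyond the smaller lists themselves.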

Other observations

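Regions outside the comparisons above held further values. A narrow region 8.96 kb before the Mmp2 start (chr8:92818226-92818559) ranked 5.44% in control 2, 25.8% in BPA 1 and 16.1% in BPA 2, with folds of 10.8, 9.40 and 11.8, and had no peak in control 1. It was the strongest region of the window found in 3 libraries. A region between Irx6 and Mmp2 (chr8:92721380-92722010) ranked 93.9% in control 1 and 26.1% in BPA 2 and was absent from the others.

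GENCODE gives further start sites inside the members. Within 500 bp of the Fto start at position 91390555, in intron 1, only BPA 2 had a peak, and the start at position 91467685 had none in any library. Of the 8 GENCODE start sites of Rpgrip1l, 2 had a peak in all 4 libraries, 1 in the BPA libraries only, and 5 in none. The second Irx6 start (position 92674826) had a peak in BPA 2 only. Both Irx3 starts had a peak in all 4 libraries and both Irx5 starts had none.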
